A study of Rattus rattus with 18 samples.

Results

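*Slco1c1* (ENSRNOG00000009740), a thyroid hormone transporter, and *Aldh1a1* (ENSRNOG00000017619), an enzyme of retinoic acid synthesis, were described in the arcuate nucleus (ARC) of the rat hypothalamus. They are 2 of the 32883 genes counted, and both were selected on earlier results of these data. *Slco1c1* was chosen by its difference between the miR-211 mimic and inhibitor groups, and *Aldh1a1* was chosen by its difference between high-fat sedentary and chow sedentary rats. Each gene could therefore be tested only in the experiment that had not chosen it, and its values in the other experiment are a description. Each name stands for 1 gene and not for a pathway.

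The data are 18 libraries of the ARC of female Wistar rats in 5 groups from 2 experiments. In the diet and running experiment, 3 chow sedentary (CS), 3 high-fat sedentary (HFS) and 4 high-fat running (HFR) libraries were available. Diets began at weaning on postnatal day 21, HFS and HFR received a diet with 60% fat, and the rats spent 4 weeks from postnatal day 90 in sedentary or running-wheel cages. In the miR-211 experiment, chow-fed rats with a cannula in the third ventricle were fasted overnight, and chow was given again at the infusion. They received a synthetic miR-211 mimic (4 libraries) or a hairpin inhibitor of miR-211 (4 libraries), and the tissue was taken 6 h later. Per the study, mimic rats had eaten less than inhibitor rats at 4 h and 6 h. The part of this in the values below was not tested. No uninjected or negative control library of this experiment was analysed here, so a higher level with the mimic and a lower level with the inhibitor cannot be told apart. The tissue was a punch that holds neurons, glia, vessels and ventricular wall together.

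Slco1c1 protein, also called OATP1C1, carries thyroxine into the brain across the endothelium of the blood-brain barrier, and it is also found in astrocytes and in tanycytes, the cells that line the floor of the third ventricle beside the ARC. Inside the brain, deiodinases of glia and tanycytes turn thyroxine into the active hormone, which acts through nuclear receptors. Aldh1a1 oxidises retinaldehyde to retinoic acid, which acts through nuclear receptors of its own, and in the brain the enzyme is known from tanycytes, meninges and some dopaminergic neurons. Both genes thus take part in the supply of a small ligand of nuclear receptors.

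The diet and running libraries held between 4680736 and 7494207 gene counts each, and the miR-211 libraries between 1275263 and 6615927. *Slco1c1* had 237 to 508 counts per library in the former and 42 to 215 in the latter, and *Aldh1a1* had 134 to 417 and 50 to 200. Counting error alone was 4.44% to 8.64% of a value in the diet and running libraries and 6.82% to 15.4% in the miR-211 libraries. Levels below are CPM, a count relative to the total of its library, scaled with TMM factors, and differences are log2 fold changes from a fit of all genes tested. Both genes passed the filter on low counts in both experiments. RNA was isolated with different kits in the 2 experiments, so no level was compared between them. Transcript lengths were not used here, so levels of different genes were compared only within cell type lists. There the gene with the highest CPM is named as the most abundant, which describes its part in the sum.

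Before the results, 2 libraries stand apart. For 8 of the 10 diet and running libraries, the counts were proportional to the normalized values that the study lists for 1 animal of that experiment, and this held for all 8 miR-211 libraries. CS replicate 2 and HFS replicate 2 matched no listed animal. Whether they are other animals of these groups or carry a wrong label was not tested, and no library was moved to another group. Diet results of the 2 genes, and most of those of the gene lists, are therefore given over all 10 libraries and over the 8 matched ones, which leave 2 CS, 2 HFS and 4 HFR libraries. The matched libraries are not a neutral subset, because the study drew its list of diet genes from the listed CS and HFS animals. A gene of that list, such as *Aldh1a1*, can differ more between HFS and CS over the 8 by that choice alone.

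The comparison of HFS with CS asks what the diet does, and that of HFR with HFS asks what running does on this diet. *Slco1c1* stood at 49.6, 53.5 and 75.3 CPM in CS replicates 1, 2 and 3. It stood at 71.9, 66.9 and 64.7 CPM in the HFS replicates in the same order. In HFR replicates 1 to 4 it stood at 47.3, 58.2, 108 and 52.7 CPM. The 3 groups overlapped, and the HFS libraries lay close together. The highest and the lowest of all 10 values were both HFR libraries, with replicate 3 far above the other HFR libraries. HFR replicate 3 also had the fewest genes with a count, 14312 beside 15231 to 15725 in the other diet and running libraries. CS replicate 3, with fewer gene counts in all, had 15304. The part of this in the *Slco1c1* value of HFR replicate 3 was not tested.

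The order of the group means of *Slco1c1* was HFS at 67.8 ± 3.70 CPM (SD, n = 3), HFR at 66.6 ± 28.1 CPM (SD, n = 4) and CS at 59.5 ± 13.9 CPM (SD, n = 3). No neighbours in this order differed beyond their spread. HFR varied by 42.2% of its mean, where counting error gives 5.25%, and HFS by 5.46%, where counting error gives 4.92%. *Slco1c1* differed between HFS and CS by a log2 of 0.19 (95% confidence interval -0.39 to 0.77), with an adjusted p of 0.994 in edgeR's quasi-likelihood test and p = 0.4 in an exact two-sided permutation test over libraries, for which 3 against 3 allow no p under 0.1. The interval reaches from a fold of 0.763 to a fold of 1.71, and smaller differences were not detectable with these libraries. Without CS replicate 2 and HFS replicate 2 the difference was 0.14 (-0.67 to 0.94).

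Between HFR and HFS, *Slco1c1* differed by -0.03 (95% confidence interval -0.57 to 0.51, edgeR adjusted p = 0.993, exact permutation p = 0.8), and between HFR and CS by 0.16 (-0.38 to 0.71, edgeR adjusted p = 0.995, exact permutation p = 0.857). For 4 libraries against 3 the smallest possible p of this two-sided test is 0.0571. HFR replicate 3 set the sign of the second value, which was -0.17 without it, and the HFR and HFS difference without it was -0.36. Over the 8 matched libraries the values were -0.04 and 0.10. The 3 comparisons share libraries and are not independent of each other.

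Few genes were called in these comparisons at an adjusted p under 0.1. edgeR called 1 of 11892 genes (0.00841%) between HFS and CS, 0 (0.0%) between HFR and HFS and 2 (0.0168%) between HFR and CS, and *Slco1c1* was not among them. At an unadjusted p under 0.05 there were 532, 504 and 509 genes, and DESeq2, on 19407 genes, called 2, 0 and 17. DESeq2 on the 8 matched libraries (18991 genes), an alternative chosen after seeing the data, called 49, 5 and 33. On the same 8 libraries edgeR (12003 genes) called 1, 0 and 2. *Slco1c1* had an adjusted p of 0.969 between HFS and CS in that DESeq2 fit. *Slco1c1* was called in none of these fits.

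**Figure D1:**
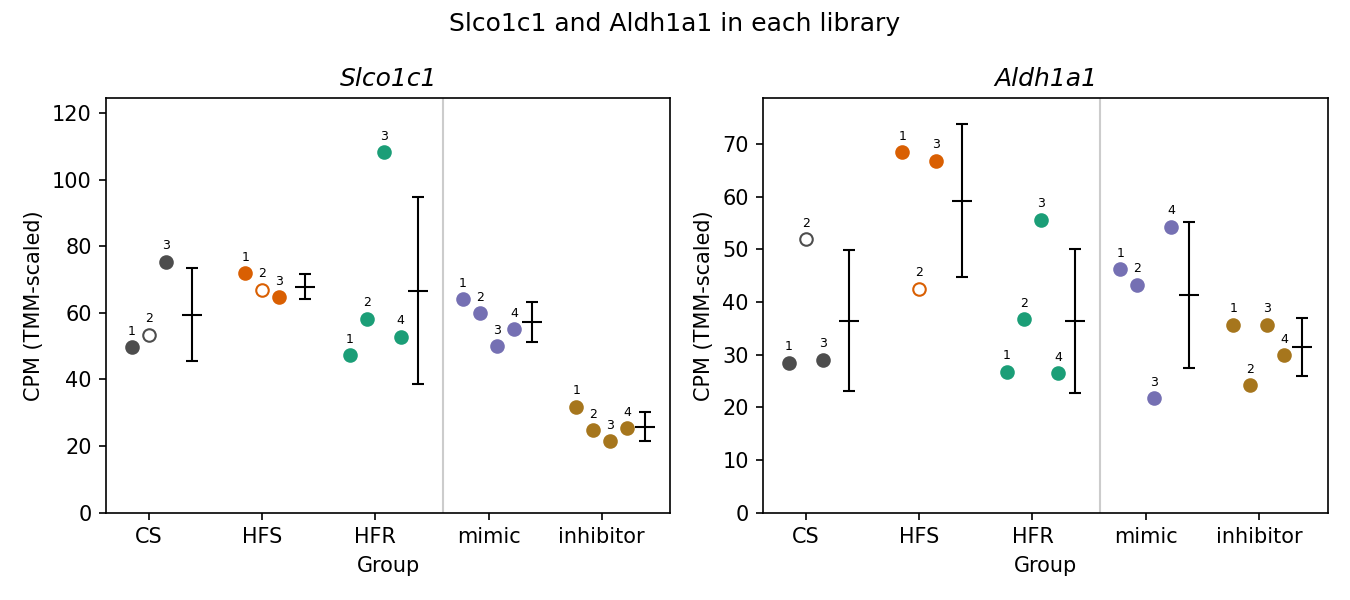
Level of *Slco1c1* (left) and *Aldh1a1* (right) in CPM, scaled with TMM factors, in each library of the 5 groups, with the replicate number above each point. Open points are the 2 libraries that matched no listed animal, bars give the mean and SD over all libraries of a group, and the vertical line parts the 2 experiments. HFR replicate 3 is at 108 CPM for *Slco1c1*, and the mimic and inhibitor libraries of that gene do not overlap.

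*Aldh1a1* was chosen by the diet comparison, so its values there are given with no test. It stood at 28.4, 51.9 and 29.0 CPM in CS replicates 1, 2 and 3. In the HFS replicates it stood at 68.5, 42.5 and 66.8 CPM. In HFR replicates 1 to 4 it stood at 26.7, 36.7, 55.6 and 26.5 CPM. Replicate 2 was the highest of the CS and the lowest of the HFS libraries, and these are the 2 libraries that matched no listed animal, so the CS and HFS groups overlapped with them and were apart without them. Of the HFR libraries, replicates 1 and 4 lay below every CS library and replicate 3 lay above all 3 of them.

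The order of the group means of *Aldh1a1* was HFS at 59.3 ± 14.5 CPM (SD, n = 3), CS at 36.4 ± 13.4 CPM (SD, n = 3) and HFR at 36.4 ± 13.7 CPM (SD, n = 4). CS and HFR did not differ beyond their spread. HFS was above CS by a log2 of 0.70 with an SE of 0.32, and HFR was below HFS by -0.71 with an SE of 0.29, while HFR and CS differed by -0.01 with an SE of 0.30. Over the 8 matched libraries HFS averaged 67.6 ± 1.19 CPM (SD, n = 2), whereas CS averaged 28.7 ± 0.381 CPM (SD, n = 2). There the differences were 1.24 (SE 0.32) for HFS against CS, -0.90 (SE 0.26) for HFR against HFS and 0.35 (SE 0.28) for HFR against CS. The difference of HFS from CS was thus larger by more than the SD between replicates without the pair of unmatched libraries. The matched CS and HFS libraries are animals on which the study's diet list, with *Aldh1a1*, was chosen. A larger difference over them can follow from that choice, and nothing is read from it.

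The comparison of mimic with inhibitor asks which transcripts differ between rats given a miR-211 mimic and rats given an inhibitor of miR-211. *Aldh1a1* was independent of the choice there. It stood at 46.2, 43.2, 21.8 and 54.2 CPM in mimic replicates 1 to 4. In the inhibitor replicates it stood at 35.7, 24.2, 35.7 and 29.9 CPM. Mimic replicates 1, 2 and 4 lay above all inhibitor libraries, mimic replicate 3 lay below all of them, and the groups overlapped.

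*Aldh1a1* averaged 41.3 ± 13.9 CPM (SD, n = 4) with the mimic and 31.4 ± 5.50 CPM (SD, n = 4) with the inhibitor, which was within the spread of the libraries. The log2 fold change was 0.39 (95% confidence interval -0.16 to 0.94), with an adjusted p of 0.674 in edgeR and p = 0.343 in an exact two-sided permutation test, which can go down to 0.0286 here. Without mimic replicate 3 the difference was 0.61 with an edgeR adjusted p of 0.306, and the range with 1 library left out was 0.26 to 0.61. At an adjusted p under 0.05, edgeR called 43 of 9625 genes (0.447%) in this comparison, of which 42 were lower with the mimic. *Aldh1a1* was not called. Without mimic replicate 1, 2 or 3 or inhibitor replicate 4 the calls numbered 0, 2, 0 and 1, whereas without inhibitor replicate 1 there were 111.

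*Slco1c1* was chosen by this comparison, so its values here are given with no test. It stood at 64.1, 59.8, 49.9 and 55.0 CPM in mimic replicates 1 to 4. In the inhibitor replicates it stood at 31.8, 24.7, 21.4 and 25.4 CPM. Every mimic library lay above every inhibitor library, as 213 of the 9625 genes tested did (2.21%), and since the gene was chosen for this difference nothing is read from it.

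*Slco1c1* averaged 57.2 ± 6.11 CPM (SD, n = 4) with the mimic and 25.8 ± 4.35 CPM (SD, n = 4) with the inhibitor, a log2 of 1.16 (SE 0.15) and a fold of 2.23. With 1 library left out the log2 was 1.09 to 1.25. By its choice *Slco1c1* belongs to the genes with a higher level in mimic than in inhibitor libraries. Fewer cells of a type and less RNA per cell cannot be told apart in such tissue punches.

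**Figure D2:**
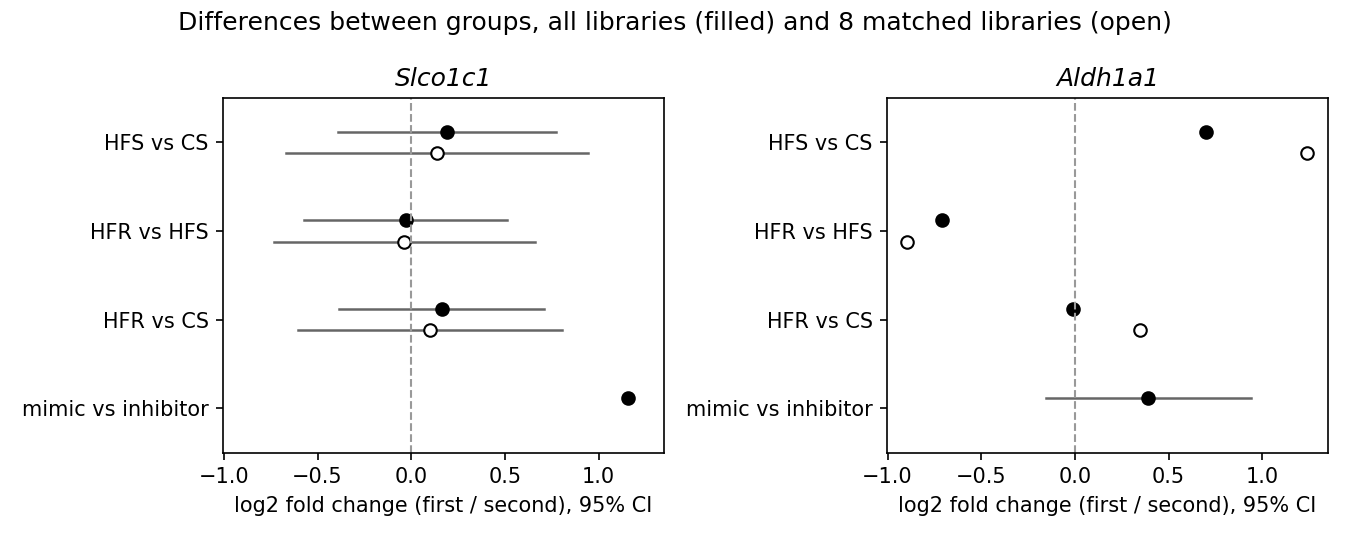
Differences of *Slco1c1* (left) and *Aldh1a1* (right) between groups as log2 fold change of the group named first over the group named second. Filled points use all libraries of the experiment, open points the 8 matched libraries of the diet and running experiment, and lines are 95% confidence intervals, drawn only for the comparisons that were tested. *Slco1c1* lies at 0.19, -0.03 and 0.16 in the 3 diet and running comparisons and at 1.16 between mimic and inhibitor.

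Other genes of the same pathways were looked up in lists, of which symbols could be paired with an identifier for only a part, because symbols came from the lists that the study chose on these samples. The genes described below are therefore not independent evidence of a direction, and each list was covered below 80%. Of the identified pathway genes, *Slco1c1* and *Tgm2* had symbols from the miR-211 list and all others from the diet list. An adjusted p in the experiment that gave a gene its symbol is thus no independent test. Of 12 thyroid hormone transporters 3 were identified, *Slco1c1*, *Slco2b1* and *Slc3a2*. None was called in the 3 diet and running comparisons. Their median log2 between HFS and CS was 0.22 over all 10 libraries, against 0.00272 over all genes tested, and 0.60 over the 8 matched ones, against -0.00424. *Slco2b1*, a transporter of the same family as *Slco1c1*, stood at 26.9, 29.9 and 10.1 CPM in CS and at 45.9, 35.7 and 41.5 CPM in HFS, a log2 of 0.87 (SE 0.30, edgeR adjusted p = 0.994) and of 1.23 (SE 0.37) over the matched libraries. *Slc3a2*, the heavy chain of amino acid transporters that also carry thyroid hormones, lay at 0.22 (SE 0.21) and 0.60 (SE 0.21).

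*Slco2b1* also had a higher mean with the mimic than with the inhibitor, at a log2 of 0.64 (SE 0.27, edgeR adjusted p = 0.456), and its groups overlapped. *Slc3a2* lay at -0.22 there (SE 0.14, edgeR adjusted p = 0.678). Neither of these 2 transporters, which this comparison had not chosen, was called, where 0.447% of all genes were.

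Downstream of transport, 3 of 19 genes of conversion, receptors and the axis were identified. *Thra*, a nuclear receptor of thyroid hormone, *Med1*, a coactivator of nuclear receptors, and *Trh*, the releasing hormone at the head of the axis, had log2 values of -0.23, -0.63 and -0.32 between HFS and CS, and of -0.33, -1.14 and -0.50 over the matched libraries. None was called in any of the 4 comparisons, and *Med1* was below the filter on low counts in the miR-211 experiment. *Thra* was at 435 CPM in HFS and 491 CPM in HFR on average. The difference was a log2 of 0.17 (SE 0.12, edgeR adjusted p = 0.989) and of 0.16 (SE 0.13) over the matched libraries.

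Of 7 genes known to respond to thyroid hormone, *Nrgn*, a calmodulin-binding protein of neurons, *Thrsp*, a gene of fat synthesis, and *Mbp*, a protein of myelin, were identified. Between HFS and CS their log2 values were 0.05, 0.87 and 0.67, with a median of 0.67 and none called. Over the matched libraries they were 0.32, 1.30 and 0.82. Between mimic and inhibitor they were -0.15, -0.91 and -0.06, again with none called. *Mbp* is also a marker of oligodendrocytes and makes up most of the summed level of that list given below.

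In the retinoid pathway, 2 of 18 genes of synthesis, binding and breakdown were identified, *Aldh1a1* and *Cyp26b1*, an enzyme that degrades retinoic acid. *Cyp26b1* stood at 1.1, 9.4 and 5.2 CPM in CS and at 15.2, 5.3 and 8.5 CPM in HFS. In HFR it stood at 1.6, 1.1, 2.8 and 3.1 CPM. *Cyp26b1* thus had, like *Aldh1a1*, a CS replicate 2 above and an HFS replicate 2 below the other libraries of its group, and its log2 between HFR and HFS was -2.14 (SE 0.58, edgeR adjusted p = 0.989). Between HFS and CS it lay at 0.87 (SE 0.59) over all and at 1.94 (SE 0.67) over the matched libraries, and between HFR and HFS over the latter at -2.43 (SE 0.54). It was below the filter in the miR-211 experiment.

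Of 15 retinoic acid receptors and responsive genes, *Tgm2*, *Meis1*, *Rai1* and *Cyp26b1* were identified. *Tgm2*, a transglutaminase induced by retinoic acid, stood at 39.0, 35.1, 48.2 and 46.4 CPM with the mimic and at 59.7, 113, 69.8 and 107 CPM with the inhibitor. The log2 was -1.07 (SE 0.21, edgeR adjusted p = 0.064), so *Tgm2* was not called, and it was lower where *Aldh1a1* had the higher mean. *Tgm2* had its symbol from the list that the study chose on these miR-211 libraries, so nothing is read from its difference there. *Meis1*, a homeobox factor, had a lower mean in HFS than in CS, at a log2 of -0.74 (SE 0.33, edgeR adjusted p = 0.994), and *Rai1* lay at -0.29. Over the matched libraries these were -1.01 and -0.46, and *Tgm2* lay at 0.87, beside 0.21 over all. None of the 4 genes was called where tested, and *Meis1* was, like *Cyp26b1*, below the filter in the miR-211 experiment.

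**Figure D3:**
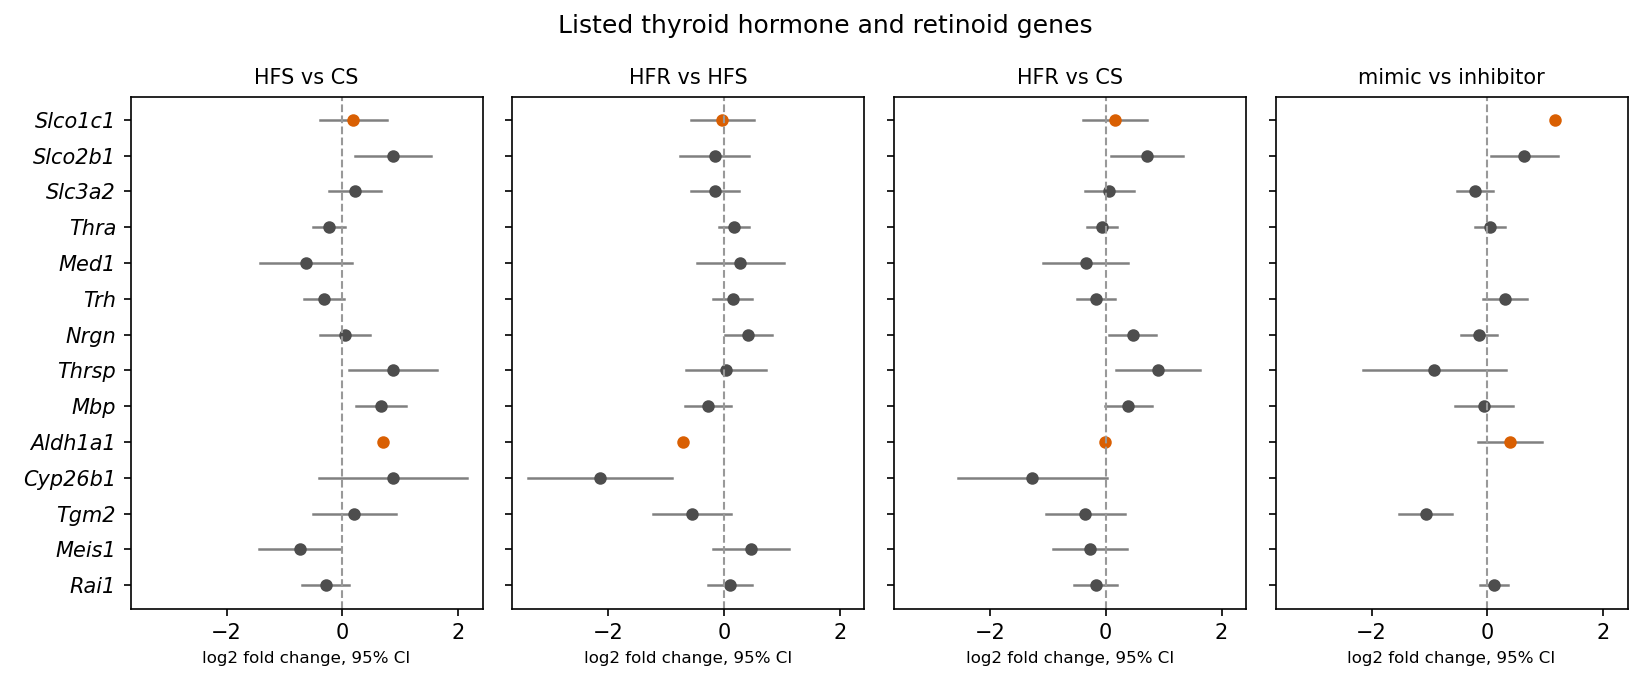
Log2 fold changes with 95% confidence intervals of the 14 identified genes of the thyroid hormone and retinoid lists in the 4 comparisons, with *Slco1c1* and *Aldh1a1* in orange and without intervals where they were not tested. A missing point is a gene below the filter on low counts. *Cyp26b1* lies lowest between HFR and HFS at -2.14, and *Slco1c1* lies highest between mimic and inhibitor at 1.16.

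Markers of the cell types in which the 2 genes are known, and of other cells in the punch, were summed over the identified genes of each list. No identified marker was at 0 in all libraries of an experiment. Of 16 endothelial markers 6 were identified, with *Slc2a1*, the glucose transporter of the blood-brain barrier, as the most abundant. Their sum was 243, 203, 222 and 188 CPM in mimic replicates 1 to 4 and 365, 358, 259 and 297 CPM in the inhibitor replicates, so it was lower in every mimic library, where *Slco1c1* was higher. All 6 were on the list that the study chose on the miR-211 libraries, and of the 5 tested 4 were lower and 1, *Itm2a*, was higher, with none called.

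Astrocyte markers (7 of 15 identified, *Clu* the most abundant) summed to 3706, 4934, 3900 and 6182 CPM with the mimic and to 4850, 6730, 5814 and 5537 CPM with the inhibitor, and the groups overlapped. Of these 7, 3 were higher and 4 lower with the mimic and none was called. Tanycyte and ependymal markers (3 of 16 identified, *Lhx2* the most abundant) summed to 44.7 ± 26.8 CPM (SD, n = 4) with the mimic and 67.6 ± 24.9 CPM (SD, n = 4) with the inhibitor. Of these 3, 1 was called, where 0.447% of all genes were. This was *Adm*, at a log2 of -1.94 (SE 0.36, edgeR adjusted p = 0.0473), just under the threshold in a comparison with no call left without mimic replicate 1 or 3. *Adm* had its symbol from the list that the study chose on these miR-211 libraries, so nothing is read from its call beside that share. Microglial and myeloid markers (9 of 13, *Lyz2* the most abundant) summed to 674 ± 138 CPM (SD, n = 4) with the mimic and 1374 ± 637 CPM (SD, n = 4) with the inhibitor, with all 9 lower with the mimic and none called. The part of these cell types in the values of *Slco1c1* and *Aldh1a1* was not tested.

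In the diet and running libraries, fibroblast and meningeal markers (11 of 18, *Aebp1* the most abundant) followed *Aldh1a1* in part. Their sum was 211, 596 and 216 CPM in CS replicates 1 to 3, and 604, 420 and 525 CPM in HFS. In HFR it was 155, 250, 259 and 431 CPM. CS replicate 2 was again the highest of the CS libraries, and HFS replicate 2 was the lowest of the HFS libraries. HFS replicate 2 still lay far above CS replicates 1 and 3. In contrast, HFR replicate 4, which was low in *Aldh1a1*, was the highest of the HFR libraries. Between HFS and CS 10 of the 11 genes were higher, with a median log2 of 0.75 and none called. Over the 8 matched libraries the median was 1.61, and the sums averaged 213 CPM in CS, 565 CPM in HFS and 274 CPM in HFR. All 11 genes were on the study's diet list, which was chosen on the listed animals, so nothing is read from the larger median.

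Other lists also had sums in CS replicate 2 above the other CS libraries. Mural markers (5 of 10, *Vtn* the most abundant) summed to 156, 392 and 129 CPM in CS, so the mean was 226 CPM with replicate 2 and 142 CPM without it, beside 252 CPM in the matched HFS libraries and 215 CPM in HFR. Astrocyte sums averaged 4440 CPM in CS, 6096 CPM in HFS and 5085 CPM in HFR, and over the matched libraries 3773 CPM in CS and 6839 CPM in HFS. Microglial sums (*C1qb* the most abundant here) averaged 475 CPM in CS, 672 CPM in HFS and 435 CPM in HFR, and over the matched libraries 391 CPM in CS and 718 CPM in HFS. These 3 lists were thus further apart between CS and HFS without the pair of unmatched libraries. Of their identified markers, 5 of 5 mural, 5 of 7 astrocyte and 5 of 9 microglial genes were on the study's diet list. That list was chosen on the listed animals, so nothing is read from the wider gap.

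Tanycyte sums averaged 45.4 ± 18.2 CPM in CS, 57.0 ± 22.4 CPM in HFS (SD, n = 3 each) and 34.3 ± 9.96 CPM in HFR (SD, n = 4), and over the matched libraries 34.9 CPM in CS and 61.2 CPM in HFS. Oligodendrocyte sums (3 of 9, *Mbp* the most abundant) averaged 10609 CPM in CS, 16946 CPM in HFS and 13836 CPM in HFR, and over the matched libraries 9297 CPM in CS and 16525 CPM in HFS. Endothelial sums were 321 ± 7.39 CPM in CS, 327 ± 12.4 CPM in HFS (SD, n = 3 each) and 285 ± 21.7 CPM in HFR (SD, n = 4). HFR replicates 1, 2 and 4, at 272, 283 and 269 CPM, lay below every CS and HFS library in the endothelial sum, and replicate 3, which was the highest in *Slco1c1*, did not. The part of these cell types in the levels of *Slco1c1* and *Aldh1a1* was not tested.

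As a check of the tissue label, 7 of 18 arcuate neuron markers were identified, among them *Pomc*, a defining transcript of arcuate neurons, and *Snap25*, a transcript of neurons in general. *Pomc* stood at 464, 875 and 171 CPM in CS and at 1012, 857 and 1063 CPM in HFS. In HFR it stood at 182, 907, 1067 and 901 CPM. CS replicate 3 and HFR replicate 1 were thus the lowest of these 10 libraries in *Pomc*.

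In the miR-211 experiment *Pomc* stood at 403, 764, 52.9 and 1034 CPM with the mimic and at 228, 573, 580 and 585 CPM with the inhibitor. *Ghrh* at 12.4 CPM, *Tbx3* at 1.28 CPM and *Nkx2-1* at 14.5 CPM were also lowest in mimic replicate 3 of all 8 libraries, which is the library lowest in *Aldh1a1*, whereas *Snap25* and *Slc32a1* were highest there at 1692 and 764 CPM, and *Gad2*, at 226 CPM, was neither highest nor lowest. The part of this library's arcuate markers in the *Aldh1a1* value was not tested beyond leaving the library out. The sum of all 7 markers does not show this, at 2598 ± 230 CPM with the mimic and 2146 ± 305 CPM with the inhibitor (SD, n = 4 each). In CS the sum was 2053 CPM, in HFS 2355 CPM and in HFR 2302 CPM, and over the matched libraries 2096 CPM in CS and 2324 CPM in HFS. Of 12 pituitary markers 2 were identified, with a sum of at most 16.1 CPM in a library, and none of the 7 choroid plexus markers had an identifier.

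**Figure D4:**
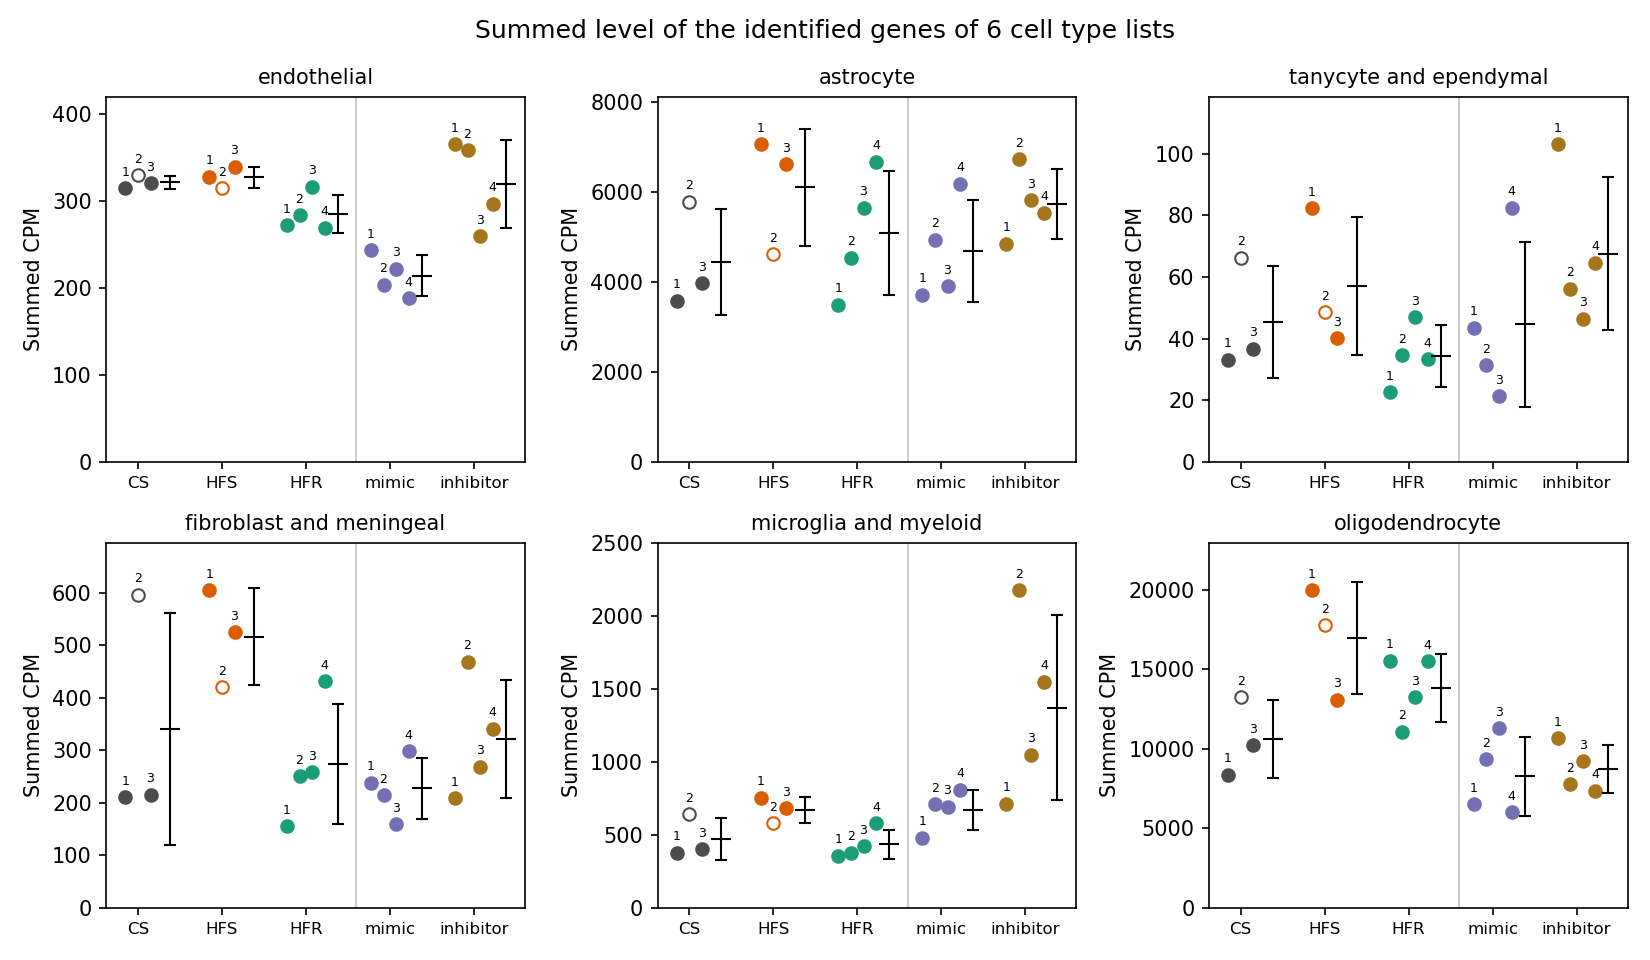
Summed CPM of the identified genes of 6 cell type lists in each library, with replicate numbers, open points for the 2 unmatched libraries and bars for the mean and SD of each group. Endothelial sums are 188 to 243 CPM with the mimic and 259 to 365 CPM with the inhibitor. The fibroblast sum of CS replicate 2 is 596 CPM, beside 211 and 216 CPM in the other CS libraries.

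The genes most like each of the 2 were taken from those with a symbol and a mean of at least 10 CPM, by Pearson's r of log2 CPM over libraries of 1 experiment, as a description over libraries that share groups. Over the 10 diet and running libraries, *Aldh1a1* was most like *Sfrp2*, a secreted regulator of Wnt signalling (r = 0.973). *Olfml2b* (0.907), *Capn6* (0.895), *Tmbim1* (0.881) and *Lmcd1* (0.869) followed. *Sfrp2* stood at 6.5, 15.1 and 7.1 CPM in CS, 24.5, 9.8 and 19.5 CPM in HFS and 5.6, 10.9, 18.8 and 4.2 CPM in HFR, so the same libraries were high in both genes. With group means removed its r with *Aldh1a1* was 0.972, so this likeness lies within groups as well.

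Over the 8 miR-211 libraries, *Aldh1a1* was most like *Nkx2-1*, a homeobox factor of the ventral hypothalamus (r = 0.926), followed by *AABR07040887.1* (0.847), *Pak3* (0.833) and *RGD1311744* (0.798). *Nkx2-1* stood at 54.8, 41.8, 14.5 and 43.2 CPM with the mimic, where replicate 3 was low as for *Aldh1a1*. With the inhibitor it stood at 27.9, 19.8, 33.1 and 31.4 CPM.

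Over the 10 diet and running libraries, the named genes most like *Slco1c1* were *Dkk3* (r = 0.718), *Ca4* (0.713), *Kctd14* (0.712), *Capn6* (0.670) and *Csf1* (0.640). They ranked only 233 to 484 of 8036 genes, most of which had no symbol here, whereas *Sfrp2* ranked 2 for *Aldh1a1*. *Dkk3*, a secreted glycoprotein, stood at 235 CPM in HFR replicate 3, beside 74.0, 132 and 107 CPM in the other HFR libraries, so its highest library was also that of *Slco1c1*. *Capn6* was on the lists of both genes, and it too was highest in HFR replicate 3, at 25.4 CPM.

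Over the 8 miR-211 libraries, *Slco1c1* was most like *Gpr37l1*, a receptor of astrocytes (r = 0.922), *Hap1* (0.912), *Pcbp2* (0.902), *Abhd14b* (0.888) and *Ptch1* (0.874). With group means removed the r was 0.458 for *Gpr37l1* and 0.07 for *Hap1*, so these likenesses came mainly from the difference between mimic and inhibitor, by which *Slco1c1* and 4 of the 5 genes had been chosen. *Pcbp2*, an RNA-binding protein, kept an r of 0.826. *Slco1c1* and *Aldh1a1* had an r of 0.526 with each other over the 10 libraries and 0.489 over the 8. By likeness to *Aldh1a1*, *Slco1c1* ranked 890 of 8036 genes in the former and 826 of 8094 in the latter.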

How the data were processed

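RNA of ARC punches was sequenced with a bulk adaptation of MARS-seq. Per the study's methods, the authors trimmed adapters with Cutadapt, aligned reads to Rnor6 with STAR (2.7.9a), discarded PCR duplicates (SAMtools) and assigned reads to Ensembl genes by HTSeq (0.13.5) in union mode without strand, so overlapping genes lose reads and antisense reads cannot be told apart. The authors deposited raw counts for 32883 genes. Whether the diet and running counts were collapsed by molecular identifier is not given in the sources used here. Rows of reads assigned to no gene were left out.

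Groups came from the sample labels. Replicates are separate rats per the study's methods. The main tool was edgeR 4.0.16 (limma 3.58.1, R 4.3.3), with filterByExpr, TMM, robust quasi-likelihood tests over all libraries of an experiment, and Benjamini-Hochberg adjustment over the 11892 or 9625 genes tested, with thresholds of 0.1 and 0.05. Common biological coefficients of variation were 0.234 and 0.205. Log2 CPM used a prior count of 2. Single values were compared with exact two-sided permutation tests in SciPy 1.17.1 (Python 3.11.15, pandas 2.3.3, NumPy 2.4.6), and figures were drawn with matplotlib 3.10.9. The fit was tested on simulated data. The 2 genes and all gene lists were chosen with earlier results of these data known. Named genes are the 2 genes, all identified genes of the 5 pathway lists, the most abundant gene of each cell type list and the 5 genes most like each of the 2, of which 1 is not reported here. *Adm*, *Itm2a*, *Ghrh*, *Tbx3*, *Slc32a1* and *Gad2* lie outside this rule and were added once their values had been seen. Symbols for 607 identifiers came from lists of the study, used for names only, and its values per animal only to match libraries (interquartile range of the log2 ratio under 0.01). The RefSeq table at hand held none of these identifiers, so no coordinates or sequences are given.

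Alternatives were DESeq2 1.42.0, RLE factors, a looser filter (1 count in the experiment) and a stricter one (10 CPM), a replicate block, leaving out each library in turn, only the 2 groups compared, the 8 matched libraries and, added after seeing the data, DESeq2 on those 8.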

Additional observations from a re-analysis of the deposited data

Results flagged for a closer look

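In groups of 4 libraries, 4 values among the listed pathway genes lay apart from the other three by more of the group's range than Dixon's 95% limit, out of 42 groups of a gene looked at, where chance gives about 1 in 20. *Thra* was at 326 CPM in 1 inhibitor library, beside 417.5 to 431.1 CPM. *Med1* was at 0.6489 CPM in 1 inhibitor library, beside 4.331 to 4.586 CPM. That value was 1 count, beside 9, 9 and 29 counts, in a gene below the filter on low counts. *Thrsp* was at 3.799 CPM in 1 mimic library, beside 11 to 11.62 CPM, and *Rai1* was at 80.95 CPM in 1 mimic library, beside 89.09 to 90.42 CPM. *Slco1c1* and *Aldh1a1* had no such library. HFR replicate 3 of *Slco1c1*, at 108 CPM beside 47.3 to 58.2 CPM, lay only just within the limit.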

How the results depend on the processing

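Of 201 values under an alternative, 164 were alike, which means the same direction and side of the threshold for a tested log2 value, a shift of less than the spread between replicates for an untested one, and a factor of at most 1.5 for a count. No alternative brought a tested value of *Slco1c1* or *Aldh1a1* past its threshold. Leaving out 1 library gave log2 values of -0.3622 to 0.1027 for *Slco1c1* in HFR vs. HFS and -0.1703 to 0.368 in HFR vs. CS, whose sign thus turned, and 0.5426 to 1.049 for *Aldh1a1* in HFS vs. CS. The latter was 1.241 over the 8 matched libraries and 1.233 there with DESeq2, a fit added after seeing the data. *Aldh1a1* was chosen on animals that include the matched CS and HFS libraries, so nothing is read from this larger value.

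Counts of called genes moved more. In HFS vs. CS (1 called) there were 2 with DESeq2 and its own filter in place of edgeR's, 0 with only the 2 groups and 49 with DESeq2 on the 8 libraries, where edgeR called 1. In HFR vs. HFS (0) DESeq2 on the 8 libraries gave 5 and edgeR 0. In HFR vs. CS (2) there were 17 with DESeq2, 8 with the looser filter and 33 with DESeq2 on the 8 libraries, where edgeR called 2. In mimic vs. inhibitor (43) there were 205 with DESeq2 and 125 with the looser filter. DESeq2 tested 19259 genes there and 19407 in the diet and running experiment, as many as the looser filter. Its counts thus changed tool and filter at once. Leaving out 1 library gave 0 to 2, 0 to 0, 0 to 3 and 0 to 111. The cause was not tested.

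With a replicate block, called genes were 0, 2, 0 and 52, *Slco1c1* lay at 0.2392, -0.01998, 0.2192 and 1.152 and *Aldh1a1* at 0.7122, -0.6231, 0.08908 and 0.3648. Deviations of same-numbered libraries correlated at -0.124 to 0.151 in the diet and running experiment and at 0.049 to 0.214 in the other. The main fit used no pairing by number. The study ran the diet and running experiment in 2 rounds, and the labels used here do not give the round of a library. Whether same-numbered libraries shared a round or batch cannot be told from these values. Depth limits the miR-211 libraries most, where counting error reached 15.4%.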
